A study of Homo sapiens with 6 samples.

Results

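The SR and hnRNP splicing factors described here are the genes named SRSF or HNRNP in the deposited expression table, together with TRA2A, TRA2B, PTBP1, PTBP2, RBFOX2, ESRP1, QKI and MBNL1. They were chosen by gene symbol, and 73 of the 63009 genes read from the table matched. Of these entries 42 had a mean of 1 FPKM or more over the libraries and are described, among 13993 genes at that level. FPKM counts the sequenced fragments of a gene per length of its transcript and per total of fragments in that library. The 42 entries are 14 of the SR family (SRSF genes, TRA2A and TRA2B), 25 of the hnRNP family (HNRNP genes, PTBP1 and PTBP2) and RBFOX2, QKI and MBNL1.

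The RNA-seq data are 6 libraries of ERRAS cells, which are IMR90 primary human lung fibroblasts carrying H-RasV12 fused to an estrogen receptor domain that tamoxifen activates. The Uninduced group (control mitotic cells, 3 libraries) received no tamoxifen, and the Induced group (Ras-induced mitotic cells, 3 libraries) had Ras activated for 4 days with 100 nM tamoxifen according to the sample labels. The paper's methods give hydroxytamoxifen with a standard dose by weight, and the difference was not resolved. Both groups carried the retroviral construct, were kept in G418 at low oxygen, and were arrested in mitosis with 1 µM DME (dimethylenastron, an inhibitor of the spindle motor Eg5) before the detached cells were collected at a mitotic index above 90%. All libraries therefore hold poly(A) RNA of arrested mitotic cells, and no unarrested cells were compared. The paper describes the experiment as repeated independently. The table's columns name a group and a number and no sample, so p-values measure the spread between these libraries, which may be in part technical.

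SR proteins pair an RNA-recognition motif with a tail rich in arginine-serine repeats, bind exonic enhancers and help recruit the spliceosome to nearby splice sites. Many hnRNP proteins bind silencer sequences on the same transcripts and oppose exon inclusion, so the balance between the families is a textbook setting for alternative splicing. Kinases of the SRPK and CLK families phosphorylate the arginine-serine tails, and several members of both families also limit their own mRNA through exons that trigger nonsense-mediated decay.

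The hnRNP genes were the most abundant members. HNRNPA1, which represses exons and binds many nascent transcripts, had the highest mean, with 889, 899.9 and 855 FPKM in Uninduced and 807, 875 and 843 FPKM in Induced libraries. HNRNPA2B1, its close relative, measured 680.5, 676 and 679 FPKM in Uninduced and 608, 661 and 640.1 FPKM in Induced libraries. HNRNPH1, which binds runs of guanine, measured 480.3, 494 and 483 FPKM and, after induction, 460.2, 493 and 429 FPKM. The groups overlapped for HNRNPA1 and HNRNPH1, whereas every Induced library lay below every Uninduced library for HNRNPA2B1. Their log2 fold changes, on the log2(FPKM + 1) scale used throughout, were -0.07 (SE, the standard error, 0.07; limma adjusted p 0.552), -0.09 (SE 0.07, 0.397) and -0.08 (SE 0.08, 0.520), so none was called.

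Among all 13993 tested genes HNRNPA1 ranked 62nd by mean FPKM, and 20 of the 42 entries stood among the 1000 most abundant. The median of the entries' mean levels was 101 FPKM, against 13.0 FPKM over all tested genes. HNRNPA1, HNRNPA2B1 and HNRNPH1 made up 37.8% of the summed hnRNP FPKM. In the SR family the most abundant genes, SRSF1, SRSF7 and SRSF9, made up 37.3% of the SR sum. Below HNRNPH1 in the order of means stood HNRNPC at 397 FPKM, HNRNPK at 361 FPKM, HNRNPM at 260.0 FPKM and HNRNPL at 255 FPKM. Within each group the libraries of HNRNPM and HNRNPL overlapped, so the order of these neighbours was not resolved by the replicates.

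At the lower end stood PTBP2 (6.98 FPKM), the SRSF8 entries and the pseudogene entries HNRNPCP1, HNRNPCP2 and HNRNPLP2. Pseudogenes, near-identical copies and the SRSF8 entries can share reads with the parent genes, and the values of all of these are uncertain. Just inside the level of 1 FPKM were one SRSF8 entry (ENSG00000180771, mean 1.58 FPKM) and HNRNPLP2 (1.97 FPKM), and just outside it were the pseudogenes HNRNPKP2 (0.947 FPKM) and HNRNPKP4 (0.829 FPKM). The 31 entries below the level comprised 26 HNRNP pseudogenes, SRSF12, HNRNPCL1, ESRP1 and a further copy each of HNRNPH2 and SRSF10 listed at 0. ESRP1, the epithelial regulator of the families, was listed at 0, 0.339 and 0 FPKM in Uninduced and 0.0280, 0.0373 and 0 FPKM in Induced libraries, and was not tested.

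**Figure D1:**
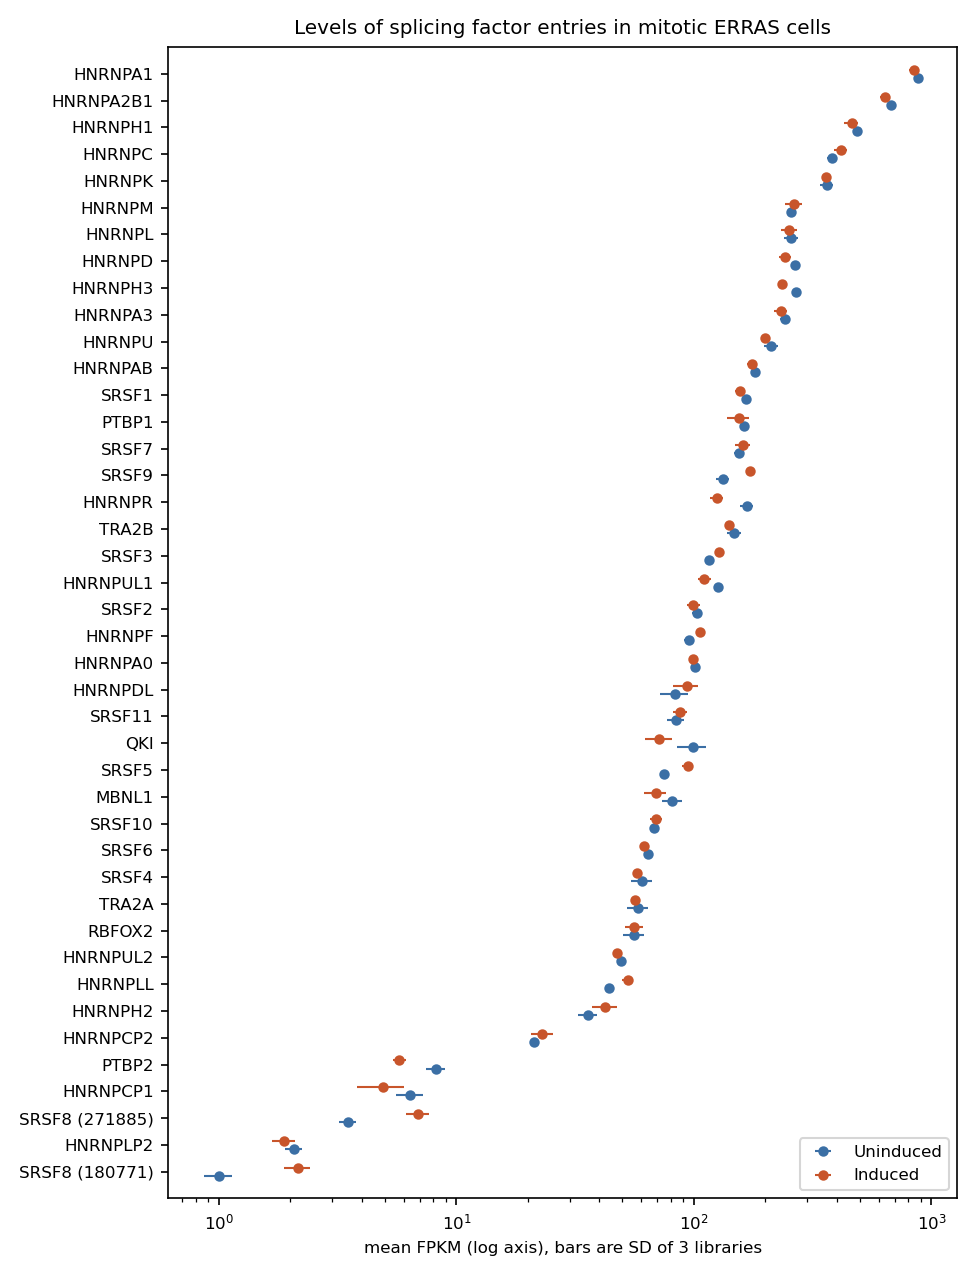
Mean FPKM of the 42 entries on a log axis in Uninduced (blue) and Induced (orange) mitotic cells, with the SD of 3 libraries as bars. Means over all libraries run from 1.58 FPKM for an SRSF8 entry to 861 FPKM for HNRNPA1. Numbers in brackets are the last digits of the SRSF8 identifiers.

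Ras induction was followed by higher SRSF9, SRSF5 and SRSF8 and by lower HNRNPR and PTBP2. Of the 42 entries 6 were called at an adjusted p of 0.05 (14.3%), against 16.7% of all tested genes, so the share of called members was near the background. In Induced cells 4 entries were higher, where 11.0% of all tested genes were, and 2 were lower, where 5.67% were. The groups did not overlap for 15 of the 42 entries, against 39.9% of all tested genes. The SR family held all of the 4 rises, among 14 entries (28.6%), and the hnRNP family both falls, among 25 (8%). The 4 rises include both entries of the gene SRSF8, which are not separate evidence. The test was limma over all tested genes, two-sided, with Benjamini-Hochberg adjustment. In bulk libraries, fewer cells of a type and less RNA per cell cannot be told apart.

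These counts moved with the scaling and with single libraries. Over all tested genes the median log2 fold change was 0.10 in the FPKM as deposited, 0.01 after quantile normalization and 0.005 once the libraries had a common upper quartile, a shift that applies to every value here. The median of the 42 entries was -0.05 as deposited, -0.10 after quantile normalization and -0.16 with the common upper quartile. With the common upper quartile 7 entries were called, against 14.5% of all tested genes, 2 of them higher (6.58% of all) and 5 lower (7.87%), and 4 of these calls were shared with the deposited scale. Quantile normalization also called 7, of which 3 were higher (7.46% of all) and 4 lower (7.93%), against 15.4% of all in either direction. With a library left out, 1 entry was called without Induced replicate 1, Induced replicate 3 or Uninduced replicate 1, 2 without Uninduced replicate 2, 3 without Induced replicate 2 and 4 without Uninduced replicate 3. Calls over all 13993 tested genes fell as well, from 2336 to 1042, 860, 978, 876, 1443 and 1872 in that order.

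**Figure D2:**
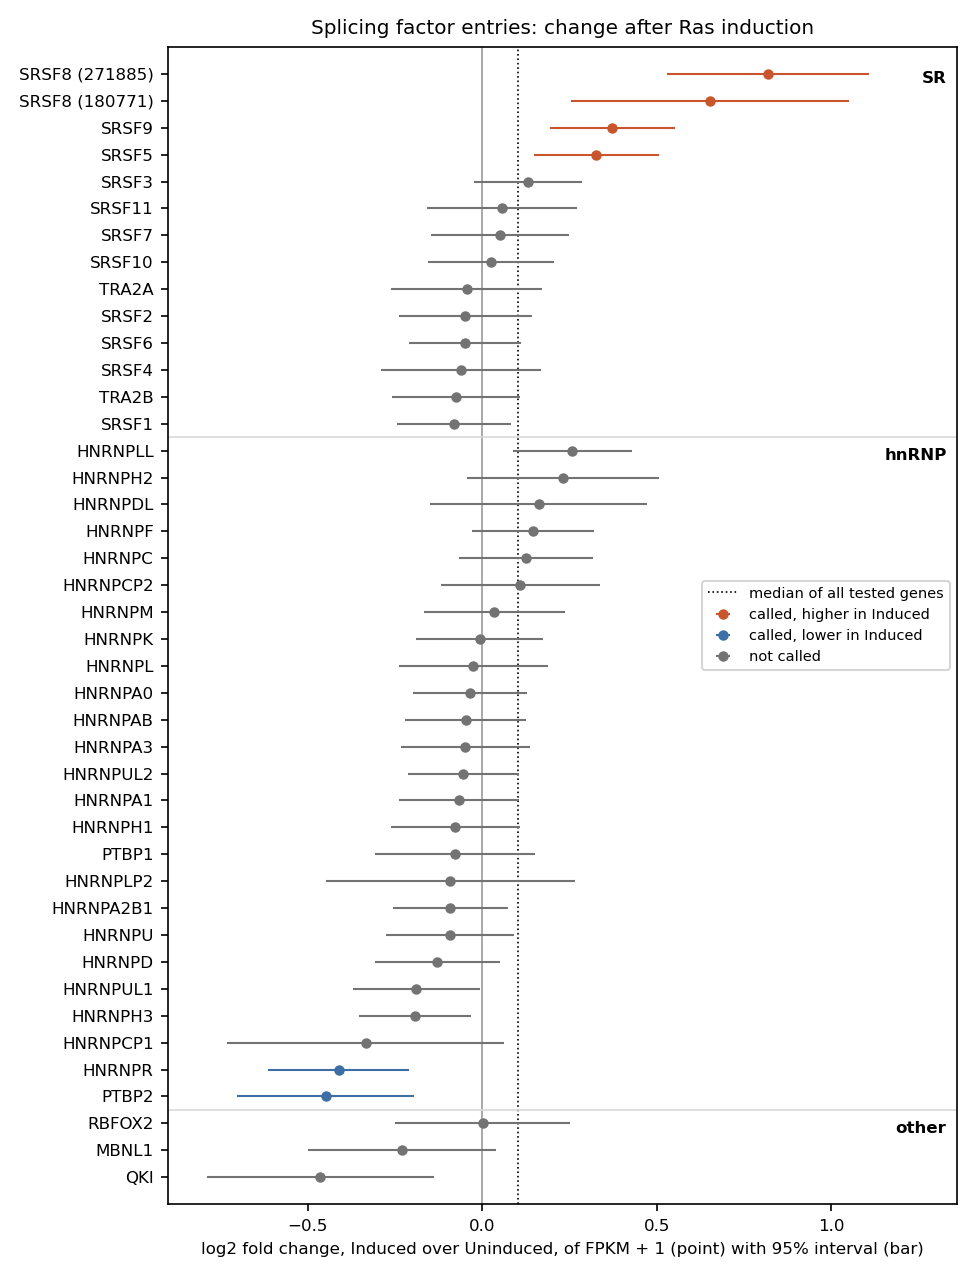
Log2 fold change of each entry (Induced over Uninduced, points) with its 95% interval (bars), for the SR family, the hnRNP family and the remaining genes. The dotted line is the median of all tested genes, 0.10. The 4 called rises are SR entries, both SRSF8 entries among them, and the 2 called falls hnRNP entries, while 36 entries were not called. After scaling to a common upper quartile 2 rises and 5 falls were called.

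SRSF9 (ENSG00000111786, chromosome 12 of GRCh37 from 120899475 to 120933749), which shares its pair of RNA-recognition motifs with SRSF1, was the most abundant member to rise. It measured 133, 140.4 and 123 FPKM in Uninduced libraries and 167, 174 and 174 FPKM in Induced libraries. Every Induced library was above every Uninduced library. The Uninduced mean was 132 ± 8.53 FPKM and the Induced mean 171 ± 3.69 FPKM (SD, n = 3 each). The log2 fold change was 0.37 (SE 0.08, limma adjusted p 0.0215). The call held under both scalings (adjusted p = 0.0466 with the common upper quartile, and 0.0215 to 0.0773 over all alternatives) but was lost without Induced replicate 1 (0.0560), Induced replicate 2 (0.0554), Induced replicate 3 (0.0773) or Uninduced replicate 1 (0.0661).

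SRSF5 (ENSG00000100650, chromosome 14 of GRCh37 from 70193617 to 70238722) belongs to a subgroup with SRSF4 and SRSF6 and is known as an insulin- and growth-responsive splicing factor. Its Uninduced libraries read 78.3, 74.6 and 72.3 FPKM and its Induced libraries 96.4, 98.0 and 88.8 FPKM. The groups did not overlap, and the lowest Induced library stood clearly above the highest Uninduced library. The log2 fold change was 0.33 (SE 0.07, limma adjusted p 0.0320). The call did not hold with the common upper quartile (log2 fold change 0.22, adjusted p = 0.0836), nor without a mean-variance trend (adjusted p = 0.0579). It was also lost with any 1 of the 6 libraries left out, at adjusted p-values from 0.0525 to 0.0882, the highest over the alternatives.

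SRSF8, an intronless relative of SRSF2 that arose by retroposition, is listed under 2 identifiers that have no position of their own in the annotation used here. ENSG00000271885 read 3.18, 3.77 and 3.50 FPKM in Uninduced and 6.56, 6.40 and 7.81 FPKM in Induced libraries. The other entry, ENSG00000180771, read 0.935, 0.914 and 1.16 FPKM in Uninduced and 2.33, 1.83 and 2.29 FPKM in Induced libraries. For both entries the lowest Induced library exceeded the highest Uninduced library. The log2 fold changes were 0.82 (SE 0.12, adjusted p 0.00886) and 0.65 (SE 0.17, adjusted p 0.0435) from limma. How the authors' software divided reads between the entries is not known, so they are not separate evidence for a rise of the gene. ENSG00000271885 kept its call without each library in turn (adjusted p from 0.0272 to 0.0444), and no other member did. ENSG00000180771 lost it without a filter on low values (0.0754), under quantile normalization (0.0582), with the common upper quartile (0.0665), and without Induced replicate 1 (0.0698), Induced replicate 3 (0.0865), Uninduced replicate 1 (0.0795) or Uninduced replicate 2 (0.0764). Without the SRSF8 and pseudogene entries, a choice made after seeing the data, 4 of 37 entries were called, 2 higher and 2 lower. That was 10.8%, against 16.7% of all tested genes. With the common upper quartile 6 of the 37 were called, 1 higher and 5 lower. Of all tested genes 14.5% were called at that scaling, 6.58% higher and 7.87% lower. With quantile normalization 6 of the 37 were called, 2 higher and 4 lower, where 15.4% of all were called, 7.46% higher and 7.93% lower.

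The most abundant SR genes other than SRSF9 were not called. SRSF1, the prototype of the family, measured 168, 165 and 163 FPKM in Uninduced and 158, 148 and 162 FPKM in Induced libraries. Its highest Induced library was just under the lowest Uninduced library, and the log2 fold change was -0.08 (SE 0.07, limma adjusted p 0.441). SRSF7, which binds RNA with the help of a zinc knuckle, measured 148, 153 and 162 FPKM in Uninduced and 147, 168 and 166 FPKM in Induced libraries. These groups overlapped, with a log2 fold change of 0.05 (SE 0.08, limma adjusted p 0.706) whose sign turned under both scalings.

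TRA2A and TRA2B, which promote exons through purine-rich enhancers and regulate each other, were not called. TRA2B read 158, 148 and 138 FPKM in Uninduced and 143, 137 and 139 FPKM in Induced libraries, and its log2 fold change was -0.08 (SE 0.08, limma adjusted p 0.525). TRA2A read 62.6, 60.2 and 51.7 FPKM and, after induction, 57.6, 55.5 and 55.5 FPKM, with a log2 fold change of -0.04 (SE 0.09, limma adjusted p 0.764). The groups overlapped for both genes. The remaining SR genes, SRSF2, SRSF3, SRSF4, SRSF6, SRSF10 and SRSF11, had log2 fold changes from -0.06 for SRSF4 to 0.13 for SRSF3, and none was called. SRSF3, which couples splicing to mRNA export, had groups that did not overlap (113 to 119 against 124 to 129 FPKM) at an adjusted p of 0.206 from limma.

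HNRNPR (ENSG00000125944, chromosome 1 of GRCh37 from 23630264 to 23670829) is an RNA-binding relative of SYNCRIP. It measured 175, 170.2 and 154 FPKM in Uninduced libraries and 124, 134 and 118 FPKM in Induced libraries. Each Induced library fell below each Uninduced library. The Uninduced mean was 166 ± 10.6 FPKM and the Induced mean 125 ± 8.08 FPKM (SD, n = 3 each), and the log2 fold change was -0.41 (SE 0.08, limma adjusted p 0.0229). Both scalings kept the call, at adjusted p-values of 0.00775 with the common upper quartile and 0.00696 with quantile normalization, and over all alternatives the range was 0.00696 to 0.0829. It was lost without Induced replicate 1 (0.0719), Induced replicate 3 (0.0829), Uninduced replicate 1 (0.0777) or Uninduced replicate 2 (0.0820).

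PTBP2 (ENSG00000117569, chromosome 1 of GRCh37 from 97187221 to 97289294) is the form of the polypyrimidine tract-binding protein best known from neurons, and in other cells PTBP1 holds it down by exon skipping. Its Uninduced libraries read 7.77, 7.82 and 9.09 FPKM and its Induced libraries 6.05, 5.35 and 5.84 FPKM. All Induced libraries were lower than all Uninduced libraries. The log2 fold change was -0.45 (SE 0.11, limma adjusted p 0.0345), and the call was lost with any 1 library left out (adjusted p from 0.0798 to 0.109), without a filter on low values (0.0674) and at a mean of 5 FPKM or more (0.0581), against 0.0193 to 0.109 over all alternatives. PTBP1 itself read 161, 157 and 170.3 FPKM and, after induction, 164, 136 and 164 FPKM. Its groups overlapped, with Induced replicate 2 low, and the log2 fold change was -0.08 (SE 0.10, limma adjusted p 0.603).

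The remaining hnRNP entries had log2 fold changes between -0.33 for the pseudogene HNRNPCP1 and 0.26 for HNRNPLL, and 21 of the 25 hnRNP entries lay within 0.25 of 0. HNRNPLL, a regulator of exon choice related to HNRNPL, read 43.9, 43.5 and 44.0 FPKM in Uninduced and 49.9, 55.4 and 52.6 FPKM in Induced libraries. The groups did not overlap, yet the adjusted p was 0.0543 from limma (0.0542 to 0.218 over the alternatives). HNRNPH3, a relative of HNRNPH1, read 275, 268 and 265 FPKM and, after induction, 227, 246 and 234 FPKM. Its groups did not overlap either, and its log2 fold change of -0.19 (standard error 0.07) had an adjusted p of 0.0973 from limma, 0.0336 with quantile normalization and 0.0261 with the common upper quartile. HNRNPUL1, with a log2 fold change of -0.19 (limma adjusted p 0.137), was called with the common upper quartile alone (0.0393). HNRNPLL, HNRNPH3 and HNRNPUL1 were singled out after their values were seen.

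QKI, a STAR-family RNA-binding protein that shapes splicing in mesenchymal cells, read 113, 97.8 and 85.8 FPKM in Uninduced and 71.6, 80.5 and 62.1 FPKM in Induced libraries. The groups did not overlap, but the libraries of each group were widely spread. The log2 fold change was -0.46 (SE 0.14, limma adjusted p 0.0628), and the gene was called with quantile normalization (0.0341) and with the common upper quartile (0.0280), within a range of 0.0280 to 0.178 over the alternatives. MBNL1, which promotes adult splice patterns and binds CUG repeats, read 85.65, 85.6 and 72.3 FPKM in Uninduced and 73.2, 60.6 and 73.6 FPKM in Induced libraries. These groups overlapped, and the log2 fold change was -0.23 (SE 0.11, limma adjusted p 0.205). RBFOX2 read 59.6, 58.9 and 49.6 FPKM and, after induction, 61.5, 53.1 and 53.4 FPKM. Its log2 fold change was 0.00 (SE 0.10, limma adjusted p 0.997), with an interval from -0.25 to 0.25, and its sign turned under both scalings.

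**Figure D3:**
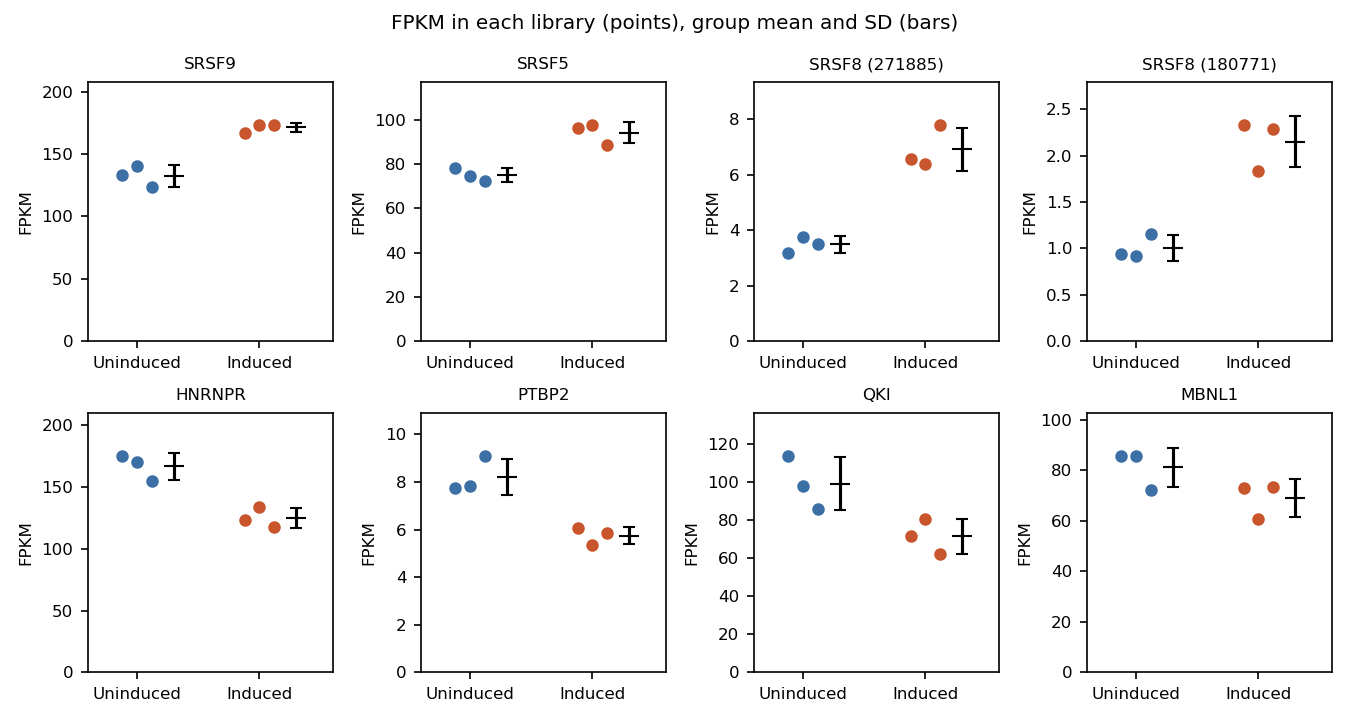
FPKM in each library (points) with the group mean and SD (bars) for the 6 called entries and for QKI and MBNL1. Only the MBNL1 groups overlap; the QKI fall was not called as deposited (adjusted p = 0.0628) and the SRSF5 rise was not called after scaling to a common upper quartile (adjusted p = 0.0836).

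For most members the data bound a change closely. The median standard error of the log2 fold change was 0.08 over the 42 entries and 0.14 over all tested genes. Of the 36 entries that were not called, 33 had a 95% interval that lay within 0.5 of 0 on the log2 scale. The exceptions were QKI, HNRNPCP1 and HNRNPH2. A log2 fold change within 0.25 of 0 was found for 78.6% of all entries, against 52.2% of all tested genes. This was not particular to the members, as the share was 88.9% in other splicing regulators and 83.3% in core spliceosome genes, lists described below. The members were also more abundant than tested genes as a whole (medians of 101 and 13.0 FPKM).

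As deposited, the sums of the families went in different directions. SR entries summed to 1246, 1243 and 1212 FPKM in Uninduced and 1278, 1275 and 1319 FPKM in Induced libraries. hnRNP entries summed to 5373.5, 5408 and 5334 FPKM in Uninduced and to 5020.5, 5342 and 5176 FPKM in Induced libraries. The SR sums did not overlap between groups, and the hnRNP sums did, since Induced replicate 2 was above Uninduced replicate 3. This turned round under both other scalings, where the SR sums overlapped and the hnRNP sums did not (5483 to 5715 against 4835 to 5112 FPKM with the common upper quartile). The log2 ratio of the group means was 0.07 for SR and -0.05 for hnRNP entries, but the SR direction turned to -0.05 with the common upper quartile and to -0.002 with quantile normalization, and the hnRNP ratio went to -0.16 and -0.10.

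Within a library the scaling cancels from a ratio of the sums. hnRNP entries summed to 4.31, 4.35 and 4.40 times the SR entries in Uninduced and to 3.93, 4.19 and 3.92 times in Induced libraries. The ratio was lower in each Induced library than in each Uninduced library, at 4.01 ± 0.152 (SD, n = 3) against 4.35 ± 0.0435 (SD, n = 3), and it kept that order after quantile normalization (4.05 against 4.33). Among the entries that were not called, a choice made by the change itself, the ratio was 5.04 to 5.11 in Uninduced and 4.83 to 5.23 in Induced libraries and the groups overlapped. SRSF9 added 39.1 FPKM and SRSF5 19.3 FPKM to an SR difference of 57.1 FPKM. In the hnRNP family the largest parts of a difference of -192 FPKM were those of HNRNPA2B1 (-41.9), HNRNPR (-41.6) and HNRNPA1 (-39.5), and HNRNPC went the other way (34.6). These sums and ratios are descriptions without a test.

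Ratios between a gene and a relative in the same library do not depend on a factor that scales the library. The genes set first below were already called or singled out, so that their ratios differed between groups is no further support. SRSF9 stood at 0.791, 0.851 and 0.757 times SRSF1 in Uninduced and at 1.05, 1.17 and 1.07 times SRSF1 in Induced libraries, so the order of the relatives turned over. SRSF5 was 1.23, 1.15 and 1.14 times SRSF6 in Uninduced and 1.59, 1.62 and 1.38 times in Induced libraries. HNRNPR was 1.12, 1.13 and 1.00 times SYNCRIP in Uninduced and 0.778, 0.869 and 0.762 times in Induced libraries. None of these pairs overlapped between groups. PTBP2 was 0.0483 to 0.0534 of PTBP1 in Uninduced and 0.0356 to 0.0393 in Induced libraries, and HNRNPLL was 0.156 to 0.179 of HNRNPL and, after induction, 0.203 to 0.213.

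Other pairs of relatives had ratios that overlapped between groups. HNRNPA2B1 stood between 0.751 and 0.795 of HNRNPA1 in Uninduced and between 0.754 and 0.760 in Induced libraries. TRA2A was 0.376 to 0.408 of TRA2B in Uninduced and 0.399 to 0.404 in Induced libraries, and HNRNPA3 was 0.267 to 0.280 of HNRNPA1 in Uninduced and 0.270 to 0.285 in Induced libraries. The groups overlapped for all 3 ratios. Overlap was also seen, at log2 differences further from 0, for HNRNPDL to HNRNPD (0.29), HNRNPF to HNRNPH1 (0.22) and MBNL2 to MBNL1 (0.15). The same held for HNRNPH3 to HNRNPH1 (-0.12), HNRNPUL1 to HNRNPU (-0.10) and SRSF7 to SRSF3 (-0.08). SRSF5 to SRSF4 (0.39) and PTBP3 to PTBP1 (-0.38) did not overlap. The pairs were picked as relatives with the gene values known, and no p-value is attached to them.

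**Figure D4:**
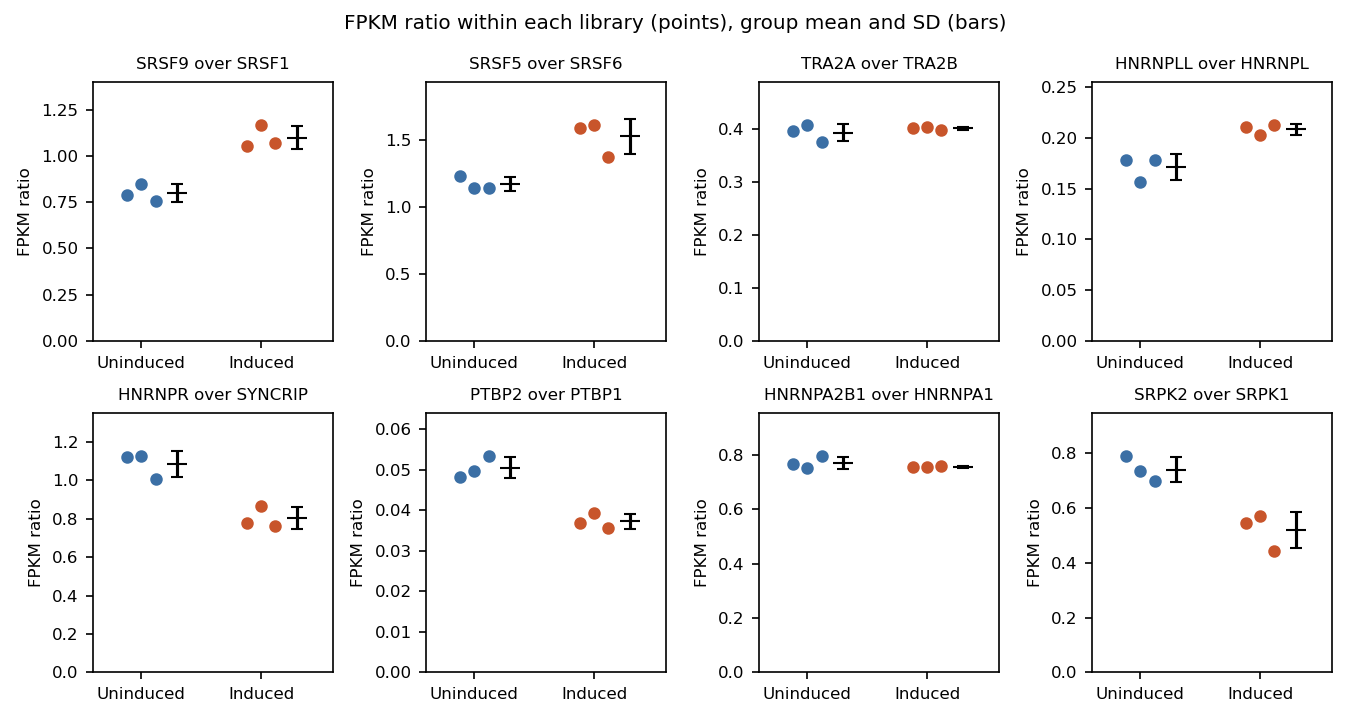
Ratio of FPKM between relatives within each library (points) with group mean and SD (bars); scaling a library by a factor leaves it as it is. The SRSF9 to SRSF1, SRSF5 to SRSF6, HNRNPLL to HNRNPL, HNRNPR to SYNCRIP, PTBP2 to PTBP1 and SRPK2 to SRPK1 ratios do not overlap between groups, and the TRA2A to TRA2B and HNRNPA2B1 to HNRNPA1 ratios do.

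The 250 bases before the start of the called genes are shown because these genes were called beside relatives that were not. They are RefSeq promoter sequences on GRCh38.p14, a later build than the gene positions above, written 5′ to 3′ on the strand of the gene. SRSF8 has a second start in the table, 42 bases further on. Capitals mark every match, on either strand, to CCAAT, the GC box GGGCGG, the ETS motif CCGGAAG, the cyclic AMP response core TGACG and the full site TGACGTCA, the AP-1 motif TGAGTCA, the E-box CACGTG and the TATA box TATAAA.
SRSF9 (chr12:120469749-120469998, - strand): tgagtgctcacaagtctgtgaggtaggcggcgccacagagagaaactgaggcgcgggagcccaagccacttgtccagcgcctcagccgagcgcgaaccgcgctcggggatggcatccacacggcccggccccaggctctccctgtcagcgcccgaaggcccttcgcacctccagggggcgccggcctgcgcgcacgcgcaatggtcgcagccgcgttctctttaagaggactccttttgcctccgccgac
SRSF5 (chr14:69766892-69767141, + strand): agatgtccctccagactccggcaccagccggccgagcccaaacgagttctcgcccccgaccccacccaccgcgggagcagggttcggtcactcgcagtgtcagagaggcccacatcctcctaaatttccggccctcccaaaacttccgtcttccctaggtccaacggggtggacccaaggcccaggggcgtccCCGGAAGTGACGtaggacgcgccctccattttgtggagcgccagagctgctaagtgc
SRSF8 (chr11:95066627-95066876, + strand): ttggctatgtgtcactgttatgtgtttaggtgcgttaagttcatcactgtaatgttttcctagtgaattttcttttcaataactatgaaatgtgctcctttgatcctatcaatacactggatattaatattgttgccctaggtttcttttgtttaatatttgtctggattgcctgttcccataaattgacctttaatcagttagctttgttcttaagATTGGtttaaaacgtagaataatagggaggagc
HNRNPR (chr1:23344285-23344534, - strand): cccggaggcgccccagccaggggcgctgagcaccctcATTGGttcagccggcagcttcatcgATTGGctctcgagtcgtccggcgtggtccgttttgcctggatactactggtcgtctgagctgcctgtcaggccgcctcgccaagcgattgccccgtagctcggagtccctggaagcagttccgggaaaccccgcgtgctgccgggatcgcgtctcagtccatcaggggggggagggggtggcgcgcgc
PTBP2 (chr1:96722388-96722637, + strand): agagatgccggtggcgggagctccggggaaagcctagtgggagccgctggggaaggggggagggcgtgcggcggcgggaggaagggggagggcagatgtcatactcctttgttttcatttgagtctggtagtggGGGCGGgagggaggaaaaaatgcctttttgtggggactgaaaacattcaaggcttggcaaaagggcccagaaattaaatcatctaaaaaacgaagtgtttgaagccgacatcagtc

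SRSF5 held CCGGAAG directly followed by TGACG, motifs found in 8.52% and 21.2% of the 35116 promoters of the same length. HNRNPR held 2 CCAAT matches, a motif in 32.0% of promoters, and SRSF8 held 1. PTBP2 held 1 GC box, found in 42.6% of promoters, and SRSF9 held none of the letters searched. AP-1 motifs (4.20% of promoters) and full cyclic AMP sites (1.65%) were in none of the 50 windows of the 33 member genes in the table, while 5 windows held the ETS motif, 30 the GC box, 22 CCAAT, 21 TGACG, 8 the E-box (6.34% of promoters) and 6 the TATA box (10.7%). The window of SRSF8 was AT-rich, with 33.6% GC and 2 CpG, whereas SRSF9 had 68.4% GC and 27 CpG, HNRNPR 68.0% and 25, SRSF5 64.8% and 19, and PTBP2 55.2% and 11. The median over all promoters was 58.0% GC. Windows of the same gene can overlap, as those of SRSF8 do, so the same letters can be counted more than once. A match is a description of letters and not of binding.

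Among the kinases that phosphorylate SR proteins, SRPK2 alone passed the test. Of 11 listed SR protein kinases and importins 10 were tested and 1 was called, where 16.7% of all tested genes were. SRPK2 stood at 28.5, 26.4 and 29.5 FPKM in Uninduced and 22.2, 19.7 and 18.9 FPKM in Induced libraries. All Induced libraries were lower, with a log2 fold change of -0.46 (SE 0.09, limma adjusted p 0.0216). The call held under both scalings and was lost without Induced replicate 2 (0.0624), Induced replicate 3 (0.0788), Uninduced replicate 1 (0.0754), Uninduced replicate 2 (0.0576) or Uninduced replicate 3 (0.0523). SRPK1, the more abundant SRPK kinase, read 36.2, 36.0 and 42.3 FPKM and, after induction, 40.8, 34.6 and 42.5 FPKM. The nuclear CLK kinases had log2 fold changes of -0.08 for CLK1, 0.23 for CLK2, 0.30 for CLK3 and 0.09 for CLK4, with 0.15 for DYRK1A and 0.14 for PRPF4B, and none was called. SRPK3 had a mean of 0.147 FPKM and was not tested. The median log2 fold change of the list was 0.07, against 0.10 over all tested genes.

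Of 42 core spliceosome genes 4 were called (9.52%, against 16.7% of all tested genes), 3 higher and 1 lower, with a list median of 0.11. PHF5A, a small subunit of the SF3b complex that recognises the branch point, read 42.3, 42.0 and 38.7 FPKM in Uninduced and 54.5, 55.1 and 53.4 FPKM in Induced libraries (log2 fold change 0.40, SE 0.07, limma adjusted p 0.0153). PUF60, which helps U2 join the intron, had a log2 fold change of 0.30 (adjusted p = 0.0278), and SNRPB2, of the U2 particle, 0.29 (adjusted p = 0.0374), both from limma. PUF60 lost its call without Induced replicate 1 (0.0507), 2 (0.0556) or 3 (0.0800) and without Uninduced replicate 1 (0.0738) or 2 (0.0641), and SNRPB2 without Induced replicate 2 (0.0753) or 3 (0.108) and Uninduced replicate 1 (0.0876) or 2 (0.0951). SF3A2, also of U2, read 49.5, 49.5 and 46.1 FPKM in Uninduced and 38.8, 31.4 and 34.2 FPKM in Induced libraries (log2 fold change -0.47, SE 0.10, limma adjusted p 0.0230). SF3A2 was not called without Induced replicate 2 (0.0534) or 3 (0.0823) or Uninduced replicate 1 (0.0785) or 2 (0.0838), nor PHF5A without Induced replicate 3 (0.0527). None of these 4 genes had overlapping groups. With the common upper quartile 2 of them were called, PUF60 (0.102) and SNRPB2 (0.150) losing the call. SNRPB2 also lost it with quantile normalization (0.103), and both did without a mean-variance trend (0.0561 and 0.0658). With 1 library left out the list had 0 (without Induced replicate 3, with 5 genes at an unadjusted p under 0.05 in limma) to 4 calls, with 1 each without Induced replicate 2, Uninduced replicate 1 and Uninduced replicate 2.

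None of the 36 tested genes in a list of 45 other splicing regulators was called by limma, where 16.7% of all tested genes were. An unadjusted p under 0.05 from limma was found for 4 of the 36, against 4707 of the 13993 tested genes. The list's median log2 fold change was 0.02. RBM4, RALY and PTBP3 were singled out after their values were seen. RBM4, with the largest fold change of the list, was higher without overlap (0.55, SE 0.17, limma adjusted p 0.0765). RBM4 was called only with 1 library left out (0.0235). RALY (log2 fold change -0.15, limma adjusted p 0.203) was called with the common upper quartile alone (0.0465). PTBP3 is the third polypyrimidine tract-binding paralog. It read 19.4, 19.4 and 15.2 FPKM in Uninduced and 13.9, 11.7 and 13.5 FPKM in Induced libraries, without overlap (log2 fold change -0.43, SE 0.13, limma adjusted p 0.0613), and was called with both scalings (0.0242 and 0.0289), at a mean of 5 FPKM or more (0.0449) and without Uninduced replicate 3 (0.0356). Of 10 nonsense-mediated decay genes, 1 was called (10%, against 16.7% of all tested genes). Under each of the other scalings 2 of the 10 were called. The share of all tested genes was then 14.5% with the common upper quartile and 15.4% with quantile normalization. SMG6, the endonuclease of the pathway, read 44.6, 39.8 and 37.0 FPKM in Uninduced and 56.5, 59.6 and 56.6 FPKM in Induced libraries, with all Induced libraries higher (log2 fold change 0.50, SE 0.09, limma adjusted p 0.0147). It was not called without Induced replicate 1 (0.0507), Induced replicate 3 (0.0568) or Uninduced replicate 2 (0.0598).

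The labels were checked against genes that respond to Ras and against markers of cell type. HRAS, whose reads may come from the construct, read 1174, 1176 and 1140.3 FPKM in Uninduced and 1439, 1847 and 1473 FPKM in Induced libraries (log2 fold change 0.44, SE 0.11, limma adjusted p 0.0431). It was not called without a filter on low values (0.166), with the common upper quartile (0.0925), without a mean-variance trend (0.0612) or with any 1 library left out (0.0598 to 0.156). Of 11 ERK target genes 8 were called (72.7%, against 16.7% of all tested genes), 7 higher and 1 lower, and the largest rises were those of DUSP6 (3.24), EGR1 (2.00) and DUSP4 (1.65) on the log2 scale. DUSP4 reached the mean of 1 FPKM only through its Induced libraries (means of 0.225 and 2.86 FPKM), so it had to differ and is no check of the labels. It is included in the 8 calls, the 7 rises and the share of 72.7%. FOSL1 went the other way, with a log2 fold change of -1.18. Without Induced replicate 1, 5 of the 11 were called.

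Fibroblast markers were abundant, led by VIM, and 2 of 9 (22.2%, against 16.7% of all tested genes) were called, both lower: THY1 (log2 fold change -1.19) and COL1A2 (-1.30). Named after their values were seen, COL1A1 (-1.43, limma adjusted p 0.0501), with the largest fold change of the list, and COL3A1 (-1.25, 0.0553) were lower without overlap and not called. COL1A1 was called with quantile normalization (0.0368), and both genes with the common upper quartile (0.0437 and 0.0477). Both were also called with a pseudocount of 0.1 (0.0386 and 0.04365) and at a mean of 5 FPKM or more (0.0343 and 0.0389). Among the libraries left out, both were called without Induced replicate 2 alone (0.0331 and 0.0444). With a library left out their fold changes ran from -1.81 to -0.99 and from -1.57 to -0.84. Over the alternatives the limma adjusted p ran from 0.0331 to 0.162 and from 0.0389 to 0.171. FAP was higher without overlap (0.83, 0.0869; 0.0168 to 0.224 over the alternatives) and was called only without Uninduced replicate 3 (1.15, 0.0168), with 0.56 without Uninduced replicate 1. VIM (0.06) and FN1 (0.02) were not called. Both turned sign with the common upper quartile and without Induced replicate 2, and FN1 also with quantile normalization and without Uninduced replicate 1. With a library left out VIM ran from -0.04 (without Induced replicate 2) to 0.16 (without Induced replicate 1) and FN1 from -0.17 (without Uninduced replicate 1) to 0.15 (without Uninduced replicate 3). With the common upper quartile 4 of the 9 were called, as without Induced replicate 2, and 1 was without Induced replicate 1 or Uninduced replicate 2. The marker sum was 5428, 6346 and 6266 FPKM in Uninduced and 4135, 5392 and 4055 FPKM in Induced libraries. Of 11 mitotic genes, led by CCNB1, 5 were called (45.5%, where 5.67% of all tested genes were lower) and all were lower, with the largest of these falls in TOP2A (-0.63), TPX2 (-0.46) and CCNB2 (-0.33). The sum over the 11 genes was 2048 to 2099 FPKM in Uninduced and 1655 to 1824 FPKM in Induced libraries. The calls depended on each library, as 0 of the 11 genes were called by limma without Induced replicate 3, Uninduced replicate 1 or Uninduced replicate 2 (6, 5 and 6 at an unadjusted p under 0.05), 1 without Induced replicate 1, 2 without Induced replicate 2 and 3 without Uninduced replicate 3. TOP2A was called without Induced replicate 1 alone among the libraries left out (0.0736 to 0.118 without each of the others), TPX2 lost its call without Induced replicate 1 (0.0509) or 3 (0.0685) and Uninduced replicate 1 (0.0652) or 2 (0.0585), and CCNB2 without Induced replicate 1 (0.0974) or 3 (0.120) and Uninduced replicate 1 (0.107) or 2 (0.112). Without a filter on low values 1 mitotic gene was called, with TOP2A (0.0806) and CCNB2 (0.0691) losing the call. Without a mean-variance trend 2 mitotic genes were called, and CCNB2 was not among them (0.0642). COL1A2 was not called without Induced replicate 1 (0.0518) or Uninduced replicate 2 (0.0576). Epithelial markers, led by KRT5, summed to 16.5 to 26.9 FPKM in Uninduced and 19.1 to 21.0 FPKM in Induced libraries, with CDH1 and EPCAM below a mean of 1 FPKM. Endothelial markers summed to at most 0.138 FPKM with PECAM1 listed at 0, and immune markers, nearly all from CD68, to 25.3 to 30.9 FPKM and 30.5 to 35.9 FPKM, with CD3E listed at 0. The part of the lower mitotic and fibroblast genes in the values of the splicing factors was not tested.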

How the data were processed

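The authors trimmed paired-end reads with Trim Galore 0.3.0, aligned them to hg19 with Tophat2 and deposited FPKM per gene and library from Cufflinks; no scaling between libraries is stated in the sources used here. A cuffdiff comparison with group values, fold changes and p-values was also deposited and was not used. Of 63129 listed genes, 120 with more than 6 values were left out, and 18 unnamed columns that hold those values were not used as libraries. In R 4.3.3, limma 3.58.1 compared Induced with Uninduced libraries on log2(FPKM + 1) by lmFit and by eBayes with its trend option. The 13993 genes that averaged 1 FPKM or more entered this two-sided test, p-values were adjusted over them after Benjamini and Hochberg, and 0.05 was the threshold of a call. The added 1 shrinks fold changes where FPKM is low. The procedure was tested on simulated data.

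Members and lists were chosen with earlier results of these data known. Full values were given for called members, the 3 most abundant SR and hnRNP genes and the genes chosen by name. The SR kinases, HRAS and the 3 largest called rises and falls of each list were named, some by fold change alone. Gene positions are from GENCODE 44 on GRCh37, a later annotation of the same build, in which 68 of the 73 members matched by identifier. Read counts were not used. For genes under 0.3 FPKM the most frequent ratio of Uninduced replicate 1 to each library was taken as its relative depth. This depth was 0.949 and 1.17 in the other Uninduced libraries and 1.13, 0.844 and 0.969 in the Induced libraries. Alternatives were a pseudocount of 0.1, no filter, a mean of at least 5 FPKM, quantile normalization, a common upper quartile, no trend, a replicate block and each library left out. Python 3.11.15, pandas 2.3.3, numpy 2.4.6 and matplotlib 3.10.9 made tables and figures.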

Additional observations from a re-analysis of the deposited data

How the results depend on the processing

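Over the alternatives, 943 log2 fold changes of 73 named genes were compared, 5 of them (COL1A1, COL3A1, FAP, VIM and FN1) added after seeing the data. Of the values 796 kept their sign and their side of the threshold, 89 (in 16 genes) lost a call, 21 (in 7 genes) gained one and 37 (in 17 genes) turned sign with no call on either side. The causes of the changes below were not tested.

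Without a filter on low values 1518 genes were called, 960 of them higher, with 1 lower member, which was an hnRNP entry, and a member median of -0.0222. At a mean of 5 FPKM or more there was again 1 lower member, an hnRNP entry, and 1 other splicing regulator was called. Quantile normalization gave 4 lower members, 1 other splicing regulator, 2 nonsense-mediated decay genes, a member median of -0.10 and log2 ratios of the sums of -0.0024 for SR and -0.10 for hnRNP entries. A common upper quartile gave 921 higher genes, 2 higher and 5 lower members, 2 SR and 4 hnRNP entries called, 2 other splicing regulators, 2 core spliceosome and 2 nonsense-mediated decay genes, a member median of -0.16 and log2 ratios of -0.0451 and -0.163. Without a mean-variance trend 2 core spliceosome genes were called.

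With each library left out in turn, 860 to 1872 genes were called, 519 to 1162 higher and 335 to 710 lower. Called members were 1 to 4, of which 1 to 3 were higher and 0 to 1 lower, 1 to 3 SR and 0 to 1 hnRNP. The other lists had 0 to 1 (other splicing regulators), 0 to 1 (kinases and importins), 0 to 4 (core spliceosome), 0 to 1 (nonsense-mediated decay) and 5 to 7 (ERK targets) calls. The member median ran from -0.0549 to -0.0234, the SR log2 ratio from 0.05 to 0.07, the hnRNP log2 ratio from -0.08 to -0.03 and the ratio of the hnRNP to SR ratios from 0.902 to 0.932.

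Fold changes turned sign under quantile normalization for HNRNPK (0.0135), SRSF7 (-0.0115), SRSF11 (-0.0058), SRSF10 (-0.0606), RBFOX2 (-0.0921), SRPK1 (-0.0716), SYNCRIP (-0.0292) and FN1 (-0.0404). With the common upper quartile they did for HNRNPM (-0.0755), SRSF7 (-0.0595), SRSF11 (-0.0520), SRSF10 (-0.0852), RBFOX2 (-0.108), SRPK1 (-0.0669), CLK4 (-0.0006), SYNCRIP (-0.0895), VIM (-0.0547) and FN1 (-0.0869). With 1 library left out, fold changes spanned 0 for HNRNPK (-0.0396 to 0.0448), HNRNPM (-0.0274 to 0.0939), HNRNPL (-0.0845 to 0.0318), PTBP1 (-0.124 to 0.0106), SRSF10 (-0.0135 to 0.0714), SRSF4 (-0.133 to 0.0158) and TRA2A (-0.125 to 0.0093). They also did for RBFOX2 (-0.0830 to 0.0463), SRPK1 (-0.0168 to 0.128), CLK4 (-0.0789 to 0.199), DYRK1A (-0.0076 to 0.331), MBNL2 (-0.281 to 0.0481), VIM (-0.0439 to 0.163) and FN1 (-0.169 to 0.149).

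In comparisons added after seeing the data, called mitotic genes were 1 without a filter, 2 without a trend and 0 to 3 with a library left out, and called fibroblast markers were 4 with a pseudocount of 0.1, 4 at a mean of 5 FPKM or more, 4 with the common upper quartile and 1 to 4 with a library left out.

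With the replicate number as a block 5 members were called, 1 of them an hnRNP entry. PTBP2 (0.0517) and the SRSF8 entry ENSG00000180771 (0.0721) lost the call and QKI (0.0404) gained it. HRAS (0.0526) and SNRPB2 (0.0567) were not called under the block, and COL1A1 (0.0456) was. Across genes, the departures from the group mean in libraries that share a number correlated at -0.003, 0.04 and 0.05, and not every library correlated best with its own number. Read counts were not used, so precision rests on the spread between 3 libraries a group, and genes under 1 FPKM, ESRP1 among them, were not tested.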
